A study of Bos taurus with 12 samples.

Results

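The miR-29 family is represented by 3 mature miRNAs, bta-miR-29a, bta-miR-29b and bta-miR-29c, among the 388 known mature miRNAs measured in the bovine mammary gland. They were taken by name, and for a miRNA listed under several precursors the entry with the highest mean was kept, as for all 36 miRNAs of that kind. Members of the family share their seed, the bases by which a miRNA pairs with its target mRNAs, and are best known for repressing collagens and other extracellular matrix genes and the DNA methyltransferases. In the mammary gland both groups of targets matter, because the gland rebuilds its matrix between lactations and DNA methylation accompanies the use of milk protein genes.

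Small RNA was sequenced from mammary biopsies of 12 healthy, multiparous Chinese Holstein cows, 1 library per cow. Lactating cows, sampled at the peak of lactation, had either a high (HP) or a low (LP) milk protein percentage in their previous lactation. Cows in the non-lactating period, sampled before the expected calving, likewise had a high (HD) or a low (LD) percentage in their previous lactation. Each of the 4 groups had 3 cows, no cow was sampled at both stages, and no group was defined by a treatment, so stage is compared between animals. The biopsies were used without visual inspection, so the cell composition of a biopsy is known only through its RNA. In such bulk tissue, fewer cells of a type and less RNA per cell cannot be told apart.

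The deposited table gives no read counts. From the smallest step between its values a depth of 6026620 to 23577193 miRNA reads per library was inferred. This is an estimate, started from the few low values each library lists and refined over the higher ones, and it leaves out reads of other kinds. It sums all 426 entries, so reads of the 36 miRNAs listed under several precursors count at each of them. The number of distinct miRNA reads is therefore lower. The median was 10732360 reads for lactating cows and 21207958 for non-lactating cows. Abundance is given as TPM, here reads scaled to a common total with no correction for length, which is of little account for mature miRNAs of similar size. At these inferred depths 3 reads correspond to 0.127 to 0.498 TPM, and the members would rest on at least 1071 reads in every library. Counting error alone would then be at most 0.703% for miR-29a, 3.06% for miR-29b and 1.40% for miR-29c, well below the differences between cows. This covers counting error only, since reads amplified by PCR are not independent molecules.

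The 3 members come from 2 places in the genome, and each place holds a miR-29b gene. In the RefSeq annotation of ARS-UCD2.0, MIR29A lies next to MIR29B-1 within a long noncoding RNA gene. MIR29B-2 lies next to MIR29C between CD34, a surface protein of blood-forming and endothelial cells, and CD46, a regulator of complement. The mature miR-29b of both genes is the same, and its 2 entries differed by only 0.203% to 1.03% of the mir-29b-2 value in the 12 libraries. The reads of miR-29b could thus not be assigned to either gene, and the mir-29b-2 entry stands for both. The mature miR-29a and miR-29c are near-identical in sequence, and since mapping allowed 1 mismatch, the share of reads that could have been counted for the wrong member was not tested.

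The miR-29c level differed most between the stages. In HP cows it was 3023, 1233 and 927 TPM, and in LP cows 1482, 2654 and 2455 TPM (replicates 1, 2 and 3). In HD cows it was 465, 233 and 306 TPM, and in LD cows 585, 389 and 300.4 TPM. Every lactating cow lay above every non-lactating cow, and the lowest lactating value, in HP replicate 3, was still above the highest non-lactating one, in LD replicate 1. The means were 1962 ± 858 TPM in lactation and 379.9 ± 129 TPM in the non-lactating period (SD, n = 6 each). Ranked by mean TPM among the 388 miRNAs, miR-29c stood at 45 among lactating cows and at 94 among non-lactating cows.

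The miR-29b level was lower than that of miR-29c but followed the same division. It was 220, 247 and 204 TPM in HP cows and 274, 230 and 434 TPM in LP cows. Values of 96.9, 59.1 and 62.0 TPM were found in HD cows and of 177, 104 and 60.3 TPM in LD cows. Again no lactating cow overlapped with a non-lactating one, with means of 268 ± 84.9 and 93.3 ± 45.5 TPM (SD, n = 6 each). It held rank 97 among lactating and rank 135 among non-lactating cows.

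The most abundant member, miR-29a, showed no such division. Its values were 3357, 4979 and 3496 TPM in HP cows and 2517, 4161 and 3194 TPM in LP cows. In the non-lactating period they were 4512, 4255 and 2633 TPM in HD cows and 4865, 3469 and 2498 TPM in LD cows. The highest and the lowest value of the 12 were in HP replicate 2 and LD replicate 3, but cows of both stages were interspersed between them. The means were 3617 ± 851 TPM in lactation and 3705 ± 996 TPM in the non-lactating period (SD, n = 6 each), at ranks 32 and 37. Within each stage the order of the levels was therefore miR-29a, miR-29c and miR-29b. The levels of miR-29a and miR-29c were closest in HP replicate 1, at 3357 and 3023 TPM, followed by LP replicate 3, at 3194 and 2455 TPM.

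**Figure D1:**
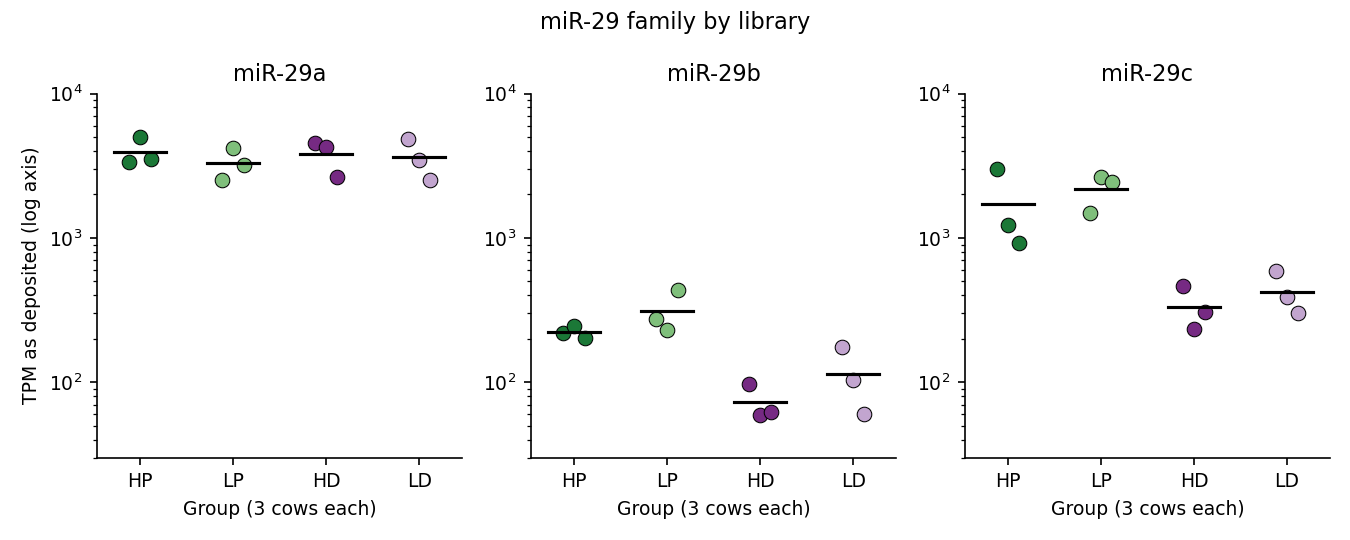
Deposited TPM (log axis) of miR-29a, miR-29b and miR-29c in the 12 cows, by group (HP and LP in lactation, HD and LD in the non-lactating period). Points are cows in replicate order and bars are means of 3 cows. All 6 lactating cows lie above all 6 non-lactating cows for miR-29b and miR-29c, and the stages overlap for miR-29a.

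Lactation was then tested against the non-lactating period, to see which members depend on the stage of the gland. Each library was scaled by its size factor (its median ratio to a typical library), 1 was added, and log2 values of all 388 miRNAs were tested with limma, with Benjamini-Hochberg adjustment over all of them. Of the 3 members, miR-29b and miR-29c rose in lactation, while 44.3% of all miRNAs tested passed an adjusted p of 0.05 and 22.2% did so upward. Groups without overlap, with lactation higher, were found for 11.6% of all miRNAs. A change between these stages was thus common among miRNAs, and it is the contrast among the members that the following values describe.

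The normalised level of miR-29c was 2046 ± 888 for lactating and 362 ± 102 for non-lactating cows (SD, n = 6 each). This was a log2 fold change of 2.41 (SE 0.29), or 5.32-fold with a 95% interval of 3.46 to 8.20, at a limma adjusted p of 5.41e-05. It ranked at 10 among the 388 miRNAs by log2 fold change. For miR-29b the normalised level was 284 ± 107 against 87.5 ± 33.9, a log2 fold change of 1.69 (SE 0.23). This was 3.23-fold (2.28 to 4.58) at a limma adjusted p of 0.000146, and it ranked at 28. The normalised level of miR-29a was 3723 ± 733 for lactating and 3500.2 ± 643 for non-lactating cows. Its log2 fold change came to 0.09 (SE 0.18, limma adjusted p of 0.726), with a 95% interval of -0.30 to 0.48, and its sign turned to -0.02 when the deposited TPM were used without size factors. An increase of miR-29a as large as that of miR-29b thus lay outside its interval, whereas a modest change in either direction did not.

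**Figure D2:**
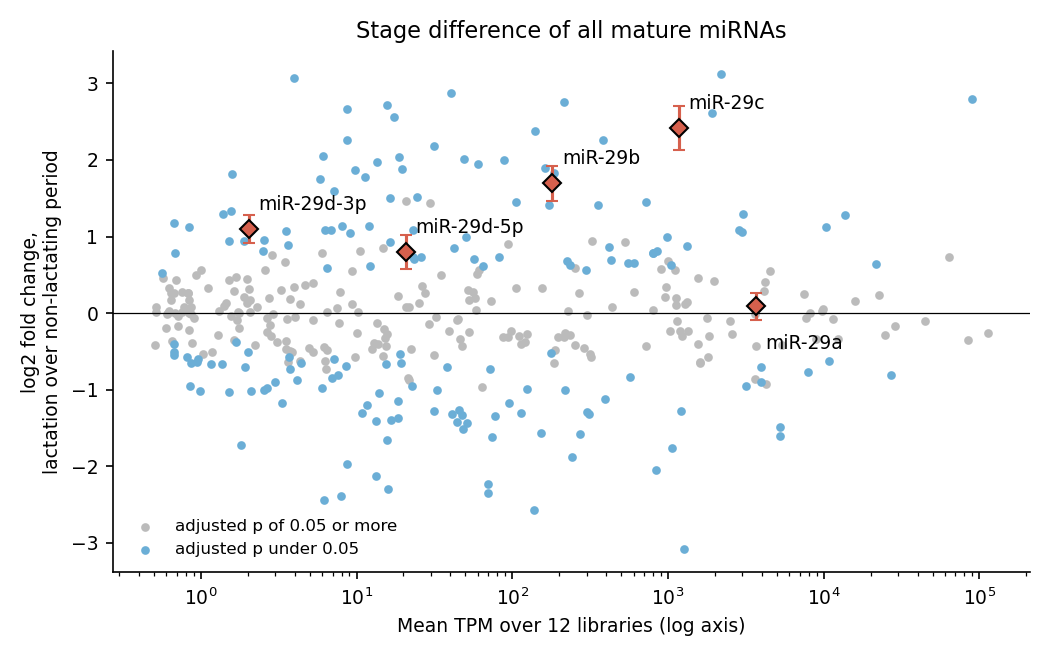
Stage difference as the log2 fold change of lactating over non-lactating cows (on the log2 normalised TPM + 1 scale) against mean TPM over the 12 libraries (log axis) for 388 miRNAs. Blue points have a limma adjusted p under 0.05, grey points do not, and diamonds with bars of 1 SE are the entries named miR-29. The values 2.41 for miR-29c and 1.69 for miR-29b stand in the upper part, and miR-29a, at 0.09, lies at the zero line to either side of which it falls depending on the size factors.

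The stage difference was found in cows of both phenotypes. In cows with a high protein percentage (HP over HD), where 31.2% of all miRNAs passed the adjusted threshold and 14.7% did so upward, the log2 fold change was 2.43 (SE 0.41) for miR-29c and 1.84 (SE 0.33) for miR-29b. Their limma adjusted p-values were 0.00102 and 0.00139. In cows with a low percentage (LP over LD), where 22.2% of all miRNAs passed and 12.1% did so upward, the values were 2.39 (SE 0.41) and 1.55 (SE 0.33). The limma adjusted p-values were here 0.00416 and 0.00805. For miR-29a the log2 fold change came to 0.27 (SE 0.25, limma adjusted p of 0.455) in the former and -0.10 (SE 0.25, limma adjusted p of 0.802) in the latter, and TMM scaling turned the latter to 0.09. Of the called miRNAs, 47.1% were higher in lactation in HP over HD, which became 36.6% without size factors. The same share was 54.7% in LP over LD and became 69.3% with TMM scaling.

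Because the ratio of 2 miRNAs within a library does not depend on scaling between libraries, the members were also compared with each other. In lactation miR-29c amounted to 90.0%, 24.8% and 26.5% of the miR-29a level in HP cows and to 58.9%, 63.8% and 76.9% in LP cows. In the non-lactating period it amounted to 10.3%, 5.49% and 11.6% in HD cows and to 12.0%, 11.2% and 12.0% in LD cows. The stages did not overlap. HP replicate 1 stood well above the other HP cows, and the LD cows were nearly alike. The ratio of miR-29c to miR-29a was 5.02-fold higher in lactation (log2 difference 2.33), with a two-sided exact permutation p of 0.00216, the smallest that 6 against 6 libraries allow, and 0.00974 after adjustment over 9 ratio comparisons.

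The miR-29b level was 4.96% to 13.6% of that of miR-29a in lactation and 1.39% to 3.64% in the non-lactating period. This ratio was 3.07-fold higher in lactation (log2 difference 1.62), with the same exact permutation p of 0.00216 and the same adjusted value of 0.00974. Of the adjacent MIR29A and MIR29B-1, miR-29a did not pass the stage test, while miR-29b, counted for both of its genes, did. Between miR-29b and miR-29c the log2 ratio was lower in lactation by 0.71, that is 0.611-fold, with an exact permutation p of 0.0152 (adjusted 0.0455). The groups overlapped in this ratio, and the adjusted value stayed under 0.05 in only 1 of the 12 tests that left out a library, the one without HP replicate 3.

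Together the 3 members made up 4273 to 7044 TPM in lactation and 2859 to 5628 TPM in the non-lactating period. The group means were 5895 ± 1100.2 TPM in HP, 5800.4 ± 1408 TPM in LP, 4207 ± 1078 TPM in HD and 4149.5 ± 1394 TPM in LD (SD, n = 3 each). The stages overlapped in the total but not in its make-up. The share of miR-29a in the total was 50.9% to 77.1% in lactation and 86.5% to 93.6% in the non-lactating period. The share of miR-29c was 19.1% to 45.8% against 5.13% to 10.5%, and that of miR-29b 3.27% to 7.14% against 1.30% to 3.14%. In the non-lactating gland the family thus consisted mainly of miR-29a, and in the lactating gland miR-29c provided a substantial part.

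**Figure D3:**
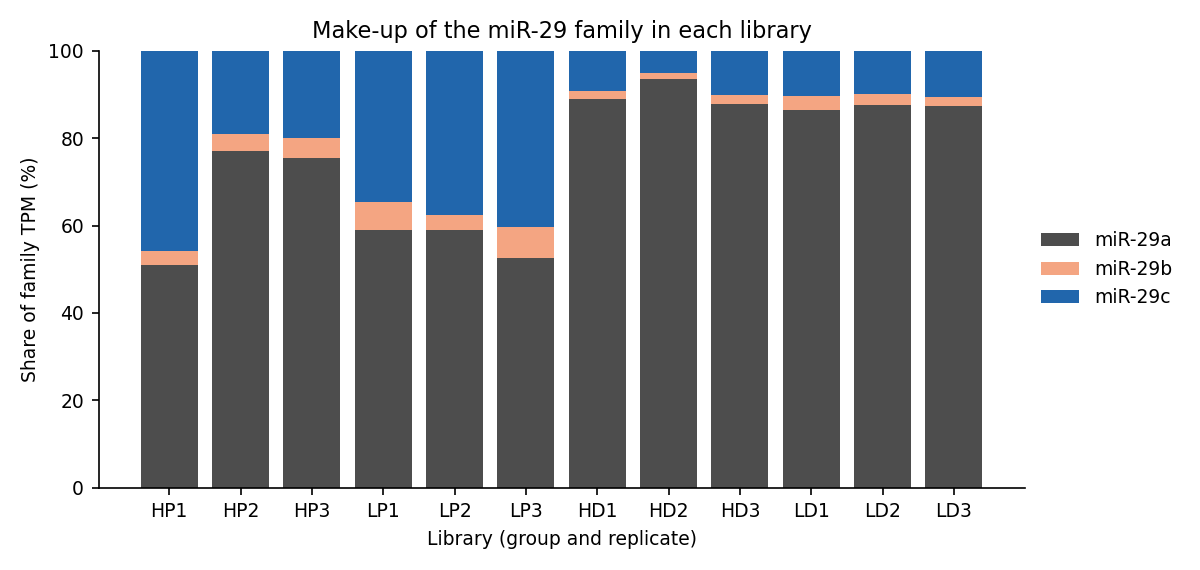
Shares (%) of miR-29a, miR-29b and miR-29c in the summed TPM of the 3 members, 1 bar per library named by group and replicate. The share of miR-29c is 19.1% to 45.8% in the HP and LP libraries and 5.13% to 10.5% in the HD and LD libraries.

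A further relative, miR-29d, was listed with both arms of its precursor but is not one of the 3 members. Its gene, MIR29D, lies beyond CD46 as seen from MIR29C, next to MIR29E and within a protein-coding gene that RefSeq names only by number. The 3p arm was rare, at 2.53 to 3.82 TPM in lactating cows and 0.59 to 1.81 TPM in non-lactating cows, or as few as 14 inferred reads in a library. It did not overlap between the stages and rose in lactation by a log2 fold change of 1.09 (SE 0.18, limma adjusted p of 0.000501), a value that the added 1 TPM understates. The 5p arm had 16.8 to 37.4 TPM in lactation and 10.8 to 21.7 TPM in the non-lactating period, with overlap. Its log2 fold change came to 0.80 (SE 0.22, limma adjusted p of 0.0117), and without size factors its adjusted p was 0.0883.

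The phenotype comparison within lactation asks whether the members differ with milk protein percentage, and none of the 3 passed there. No measured miRNA checks the labels HP and LP, so the direction of LP over HP rests on the labels alone. In LP over HP, 0.258% of all miRNAs (1 of 388) passed the adjusted threshold and 10.1% were differentially expressed by the rule of the study (an unadjusted p under 0.05 with a log2 fold change beyond 0.8 in either direction). The log2 fold change was -0.23 (95% interval -0.80 to 0.34) for miR-29a, 0.47 (-0.24 to 1.18) for miR-29b and 0.53 (-0.43 to 1.49) for miR-29c. The limma adjusted p-values were 0.761, 0.555 and 0.652, and HP and LP cows overlapped for each member, whereas 19.8% of all miRNAs did not overlap. For miR-29c the spread lay in the HP cows, with a normalised level of 1791 ± 1271 against 2301 ± 399.7 in LP cows (SD, n = 3 each). Without HP replicate 1, which had the highest miR-29c level of all 12 cows, its log2 fold change was 1.07, with a limma adjusted p of 0.0678. That was the largest value of the 6 fits that left out 1 library. They ranged from 0.11 to 1.07, with limma adjusted p-values of 0.0678 to 0.976, so that none passed.

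In the non-lactating period, 0.0% of all miRNAs passed the adjusted threshold in LD over HD by limma (0 of 388), 4.9% had an unadjusted p under 0.05 and 3.35% met the rule of the study. The normalised level of miR-29b was 53.9 to 67.6 in HD cows and 79.2 to 139 in LD cows. These ranges did not overlap, whereas those of the deposited TPM did. The log2 fold change was 0.78 (SE 0.32, 95% interval 0.04 to 1.51), below the fold of the study's rule, with a limma adjusted p of 0.936. For miR-29c the normalised level was 213 to 333 in HD cows and 395 to 518 in LD cows, again without overlap, while the deposited TPM of these cows overlapped as well. Its log2 fold change was 0.58 (SE 0.29, 95% interval -0.10 to 1.27) at a limma adjusted p of 0.994. Lack of overlap with LD higher was found for 4.38% of all miRNAs (17 of 388). For miR-29a the ranges overlapped, and the log2 fold change of 0.15 (95% interval -0.50 to 0.80, limma adjusted p of 0.994) turned to -0.09 without size factors.

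The ratios within a library did not pass between the phenotypes either. In LP over HP the log2 ratio was higher by 0.70 for miR-29b to miR-29a and by 0.76 for miR-29c to miR-29a, with exact permutation p-values of 0.3 and 0.4. In LD over HD the differences were 0.64 and 0.44, with exact permutation p-values of 0.1 and 0.2. With 3 against 3 libraries this test cannot go below 0.1, so that it could not pass 0.05 in either stage. The ratio of miR-29b to miR-29a in LD cows lay above that in HD cows without overlap (adjusted exact permutation p of 0.225).

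A dependence of the phenotype difference on stage was tested as the interaction over all 12 libraries, where limma called 0 of 388 miRNAs at the adjusted threshold (0.0%) and 20 (5.15%) at an unadjusted p under 0.05. The difference of the log2 fold changes, LP over HP less LD over HD, was -0.37 (SE 0.36) for miR-29a, -0.29 (SE 0.46) for miR-29b and -0.04 (SE 0.57) for miR-29c. The limma adjusted p-values were 0.960, 0.993 and 0.993, and the sign for miR-29c turned under both other scalings. The 95% interval for miR-29c, from -1.29 to 1.21, left room for differences of more than 2-fold in either direction.

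**Figure D4:**
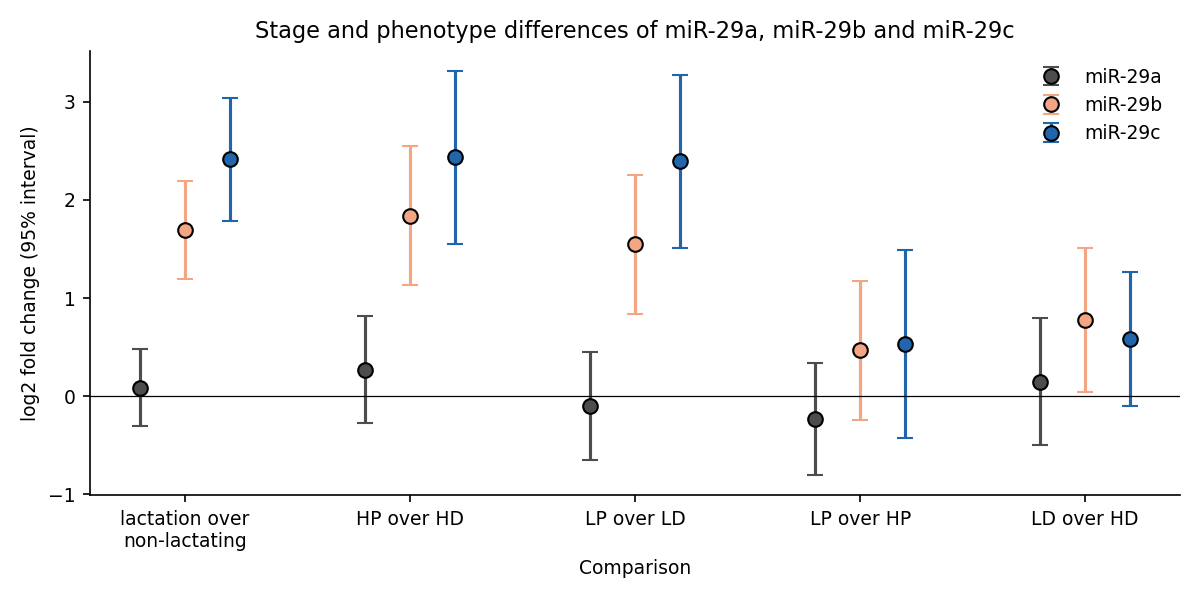
Log2 fold changes with 95% limma intervals of miR-29a, miR-29b and miR-29c in 5 comparisons (lactation over non-lactating, HP over HD, LP over LD, LP over HP and LD over HD). In the 3 stage comparisons the intervals of miR-29b and miR-29c lie above 0 and those of miR-29a span it, with a sign that depends on the size factors in lactation over non-lactating and in LP over LD. Among the phenotype comparisons the interval of miR-29b in LD over HD, 0.04 to 1.51, alone lies above 0, and its adjusted p is 0.936.

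The miRNAs whose levels followed each member most closely over the 12 libraries were sought among 230 candidates with a mean of at least 10 TPM, by Pearson's r of log2 normalised values. These values describe likeness only, since all miRNAs of a library share its depth and scaling and since the 2 stages weigh heavily in them. For miR-29c the nearest were miR-126-3p, an endothelial miRNA (r = 0.968), miR-15a (0.962), miR-190a (0.934), miR-193a-3p (0.929) and miR-186 (0.926). For miR-29b they were miR-33b (0.960) and miR-33a (0.952), which lie within the genes of the sterol regulators SREBF1 and SREBF2 in humans, with miR-362-3p (0.960), miR-126-3p (0.939) and miR-6522 (0.930). The r between miR-29b and miR-29c was 0.913. For miR-29a the nearest were less close, namely miR-199b (0.642), miR-497 (0.583), miR-27a-3p (0.562), miR-1839 (0.554) and miR-378 (0.549), and r was 0.246 with miR-29b and 0.174 with miR-29c.

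Other miRNAs known to act on the targets of the family were followed as 2 lists. Of 5 miRNAs directed at DNA methyltransferases, miR-148a rose in lactation by a log2 fold change of 2.79 (SE 0.26), and miR-148b, miR-152, miR-143 and miR-101 did not pass. This is 1 of 5, near the 22.2% of all miRNAs that passed upward. With TMM scaling, and without LP replicate 2 or LD replicate 2, 2 of the 5 were higher. The median of the list was 0.21, against -0.01 over all miRNAs. Of 10 miRNAs linked to fibrosis and the extracellular matrix, 0 were higher and 2 lower in lactation, with a median of -0.32. Of all miRNAs 22.2% passed in each direction. These were miR-214, at a log2 fold change of -1.17 (SE 0.25, limma adjusted p of 0.00234), and miR-199a-3p, at -0.63 (SE 0.22, limma adjusted p of 0.0333). The latter did not pass with TMM scaling, where 1 of the list was higher and 1 lower, nor without any 1 of HP replicates 1 and 3, LP replicates 1 and 3, HD replicates 2 and 3 and LD replicate 2. Without HP replicate 2 or HD replicate 1, 1 of the list was higher. Without size factors, or without LD replicate 1, 3 of the list were lower. In LD over HD 0 members of either list passed by limma, and in LP over HP 0 did. In LP over HP 1 of the matrix list was higher with TMM scaling, among miRNAs of at least 10 TPM or with all 12 libraries in the fit, and 1 of the other list without HP replicate 1. The list medians were 0.06 and 0.08 in LP over HP and 0.65 and 0.17 in LD over HD, against -0.01 and 0.03 over all miRNAs.

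MiRNAs that mark cell types also moved with stage. Where 22.2% of all miRNAs passed upward by stage, 5 of 6 epithelial miRNAs rose in lactation (miR-200a, miR-200b, miR-200c, miR-141 and miR-429, not miR-205), with a summed normalised level of 30793 to 56022 in lactating and 17783 to 36714 in non-lactating cows. Without size factors 3 of these passed, and miR-429 passed only without HP replicate 2, HD replicate 1, HD replicate 2 or LD replicate 1 among the fits that left out a library. In LP over LD 3 of the 6 passed upward and in HP over HD 0 passed by limma, a contrast that was not tested. Both endothelial miRNAs, the 2 arms of 1 precursor, rose, miR-126-3p by a log2 fold change of 1.12 and miR-126-5p by 0.74. Their sum was 11053 to 16943 against 5526 to 8743, without overlap, as for 11.6% of all miRNAs with lactation higher. It was nearly all miR-126-3p, at 4654 to 16499 TPM against 8.03 to 35.4 TPM for miR-126-5p. The miR-126-5p call was lost without size factors and without any 1 of HP replicate 2, LP replicates 1 and 3 and HD replicate 2. Of 5 leukocyte miRNAs, miR-142-5p and miR-155 fell, with sums of 5821 to 9235 against 7066 to 14735. None of 3 red blood cell miRNAs passed by limma (837 to 2577 against 282 to 8154), but without LD replicate 2 all 3 were higher, with a median log2 fold change of 1.70 in place of 0.92. None of 5 measured muscle miRNAs passed (63014 to 151280 against 53793 to 298895), and 2 of them, miR-133b and miR-1, had as few as 9 and 11 inferred reads. No marker was at 0 in any library. The part of these cell types, and of the lower depth in lactation, in the rise of miR-29b and miR-29c was not tested.

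Between HD and LD cows the leukocyte sum did not overlap either, at 7066 to 10691 in HD and 13878 to 14735 in LD, and the endothelial sum was 5526 to 5969 in HD and 6147 to 8743 in LD. In both, LD was higher, as for miR-29b and miR-29c, while 0 of the 5 leukocyte and 0 of the 2 endothelial miRNAs passed by limma. Of all miRNAs, 4.38% did not overlap with LD higher. These sums are of normalised levels, and in deposited TPM the endothelial sums of HD and LD overlapped. The part of these cell types in the miR-29b and miR-29c levels of LD cows was not tested. In lactation the muscle sum, of which miR-143 made up at least 99.4% in every library, was 63014 to 87573 in HP and 122495 to 151280 in LP cows, without overlap, while the members overlapped between these groups. Of all miRNAs, 19.8% did not overlap between HP and LP.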

How the data were processed

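Small RNA of 18 to 30 nt from 12 mammary biopsies was measured. Per the study's methods, the authors trimmed reads with Cutadapt and Trimmomatic, aligned them with Bowtie to ARS-UCD1.2, 1 mismatch being allowed, and counted known miRBase miRNAs with miRDeep2. They deposited 1 table of RPM values, called TPM, for 426 entries (a mature miRNA and its precursor), each over 0.5 TPM in at least 2 libraries. DESeq2 on read counts was the authors' test. As the deposited RPM values are not counts, a test for normalized values was used here. Libraries were grouped by their labels, and 0 sample columns were left out.

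The entry with the highest mean was kept per mature miRNA. Depth was inferred from the smallest step of the values, of which 100% in every library were whole multiples within 0.006 TPM. Few low values are listed, so no count test was based on it. TPM were divided by median-of-ratios size factors of the fitted libraries, and limma 3.58.1 (R 4.3.3) with a mean-variance trend was run on log2(value + 1) of 388 miRNAs. The phenotype comparisons were fitted on 6 libraries each, the stage comparisons and the interaction on 12. Adjusted p-values are Benjamini-Hochberg values over all 388. Ratios were tested by exact permutation in scipy 1.17.1 (Python 3.11.15). Both were checked on simulated data. Neither a reference sequence nor coordinates of the files' genome build were used.

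Named are the members, every other entry called miR-29 with a letter, 2 target-related lists, cell type markers and the 5 nearest miRNAs per member. Members and lists were chosen with earlier results of these data known. Replicate numbers are shared between groups of different cows, so they were not used as a block. P-values measure the spread between cows.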

Additional observations from a re-analysis of the deposited data

Results flagged for a closer look

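Each member's normalised level and each ratio of members was examined in the 6 libraries of a stage, 12 sets in all, for a library far from the others (a gap to its nearest neighbour that exceeds Dixon's 95% limit as a share of the whole range). Chance gives about 1 such set in 20. The miR-29a level of HP replicate 2 was the highest in lactation, at 5160 normalised TPM with the next library at 3715, a gap of 0.729 of the range. Without that library the stage log2 fold change of miR-29a was -0.0158, against 0.09 with it. The log2 ratio of miR-29c to miR-29a in HD replicate 2 was the lowest of the non-lactating period, at -4.19 with the next at -3.28, a gap of 0.803 of the range. This library also had the lowest miR-29b and miR-29c levels of the period, at 53.9 and 213 normalised TPM.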

How the results depend on the processing

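For miR-29b and miR-29c in the 3 stage comparisons, all 124 alternatives kept the direction and an adjusted p under 0.05 (log2 fold changes of 1.30 to 2.85, highest adjusted p 0.0390). The sign of differences that had not passed turned in 5 cases other than left-out libraries. Without size factors miR-29a was -0.0208 by stage and -0.0873 in LD over HD, and the interaction of miR-29c was 0.15. With TMM scaling miR-29a was 0.0947 in LP over LD and the interaction of miR-29c 0.0605. Counts of miRNAs passing the adjusted threshold moved from 172 to 113 by stage when only miRNAs of at least 10 TPM were tested (fewer miRNAs). In LP over LD they moved from 86 to 45 without size factors and to 52 with its own 6 libraries alone. In LP over HP the count of 1 became 5 with TMM scaling, 4 among miRNAs of at least 10 TPM, 2 with all 12 libraries in the fit and 0 with a replicate block. The log2 ratio of miR-29b to miR-29c by stage was -0.71 with the lower miR-29b entry, at an adjusted p of 0.0584. Where not stated, the cause was not tested. Without size factors the median over all miRNAs of the log2 fold change in LD over HD shifted from 0.03 to -0.16, and that of HP over HD from 0.01 to -0.15.

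Leaving out 1 library at a time gave -0.0158 to 0.17 for miR-29a by stage, -0.18 to 0.0578 in LP over LD and -0.0291 to 0.28 in LD over HD. The interaction ranged from -0.55 to 0.0123 for miR-29b and from -0.44 to 0.50 for miR-29c. The log2 ratio of miR-29b to miR-29c ranged from -0.83 to -0.51 by stage and from -0.57 to 0.29 in LP over HP. Counts ranged from 34 to 100 in LP over LD, with 34 without LP replicate 3, 43 without LD replicate 3 and 57 without LP replicate 1. In LP over HP they ranged from 0 to 10, with 10 without HP replicate 1, 2 without LP replicate 2 and 0 without HP replicate 2, LP replicate 1 or LP replicate 3. Where a group kept few libraries, its spread was taken from the other groups.

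Replicate numbers are shared by different cows. Deviations of same-numbered libraries correlated between -0.39 and 0.55. The highest values, 0.55 and 0.50, were those of replicates 1 and 3 between HD and LD, where replicate 2 gave -0.11. What these libraries share was not tested. With the replicate block the calls of the 3 members did not change. Tests on recovered read counts (edgeR and DESeq2) were planned and not run, since the libraries list too few low values to establish whole reads for a count test. The inferred depths share this limit. Of 343 alternatives for other named miRNAs, 305 kept their call, 38 lost it and 0 turned direction. Depth limited the 3p arm of miR-29d, with as few as 14 inferred reads, and the muscle markers miR-133b and miR-1, which the limit of 10 TPM removed.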

Other observations

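In the 6 non-lactating libraries miR-29b and miR-29c had the same order of normalised levels, from 53.9 and 213 in HD replicate 2 to 139 and 518 in LD replicate 2, with the HD cows below the LD cows in both. In these 6 libraries r between the 2 miRNAs was 0.890 (exact permutation p of 0.00278, adjusted 0.0167 over 6 relations). Both levels of a library are divided by the same size factor. In deposited TPM the 2 orders differed only in the places of HD replicate 1 and LD replicate 2, and HD and LD cows were mixed. There HD replicate 1 had 96.9 and 465 TPM, LD replicate 2 had 104 and 389 TPM, and LD replicate 3 had 60.3 and 300.4 TPM. In the 6 lactating libraries r between them was 0.417 (exact permutation p of 0.439, adjusted 0.863 over 6 relations), Spearman's rho was 0.371 (exact permutation p of 0.497, adjusted 0.746), and r without the 2 cows farthest from the median of miR-29b was 0.343. HP replicate 1 had the highest miR-29c level of the lactating cows, at 3238 normalised TPM, with a miR-29b level of 236, while LP replicate 3 had the highest miR-29b level, at 471.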
